A study of Mus musculus with 18 samples.

Results

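Genes of the cell division cycle were followed in liver RNA of mice with cirrhosis caused by carbon tetrachloride (CCl4), a solvent that injures hepatocytes. The set held 44 named genes, found by symbol among the 54752 genes of the count table, and covers G1 and S phase cyclins, transcription factors, replication proteins, mitotic kinases and spindle proteins. All 44 were present, and all 44 passed the filter on low counts, which kept 21914 genes in all. Levels are CPM, the counts of a gene per M counts of its library, with libraries scaled by TMM (a trimmed mean of log ratios), and 22 of the 44 averaged above 1 CPM in every group.

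Cirrhosis-PTH mice had intraperitoneal CCl4 as a 10% mixture, 10 µl for each g, injected 2 times weekly over 12 weeks, and were dosed orally every day with Pien Tze Huang (PTH), a traditional Chinese medicine preparation, at 0.25 mg per g. Cirrhosis mice had the same CCl4 injections with water by mouth. Control mice had injections of corn oil alone with water by mouth. All were male C57BL/6 mice, 6 weeks old when bought, and 6 livers from the 15 mice of each group were sequenced after removal of ribosomal RNA. PTH was not given to any mouse without CCl4 in these libraries, so its effect on these transcripts in uninjured liver was not measured. Library totals ran from 62482144 to 112294112 counts, of which 31.4% to 60.8% lay in ribosomal RNA loci. Control replicates 7 and 8 had the fewest counts elsewhere, 30976275 and 24513979, against a highest value of 67461038. Hepatocyte markers summed to between 33600 and 68900 CPM in every library.

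Adult hepatocytes are mostly quiescent and re-enter the cycle after tissue loss or injury. Cyclin D1 with its kinases carries cells through G1, and E2F factors then induce the genes of DNA synthesis, among them the helicase subunits of the Mcm family. Later in the cycle the MuvB complex with B-Myb and Foxm1 switches on mitotic genes, many of which carry a cell cycle homology region (CHR) and CCAAT boxes near the start of transcription. In quiescent cells the related DREAM complex holds such genes down.

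Most of the set was higher in livers exposed to CCl4 alone. In Cirrhosis against Control, 31 of 44 genes rose and 3 fell, where 25.5% of all tested genes were called higher and 25% lower, 50.5% in all. The median log2 change over the 44 genes was 1.12, against 0.015 over all tested genes. Prc1, which bundles the microtubules of the central spindle, was 5.16-fold higher, and the replication helicase subunit Mcm6 was 4.02-fold higher. E2f8, an atypical E2F that represses transcription, went the other way and stood at 0.166 times its Control level. In 24 of the genes every Cirrhosis library lay above every Control library, and in 2 every Cirrhosis library lay below. Among all tested genes, 15.6% were separated upward in this way and 14.7% downward.

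With PTH given alongside CCl4, 20 of the 44 genes were lower than in Cirrhosis and 4 were higher, where 18.6% of all tested genes were called lower and 20.1% higher, 38.6% in all. The median log2 change over the set was -0.70, against -0.00318 over all tested genes. Mcm6 stood at 0.332 times and Prc1 at 0.274 times the Cirrhosis level, while E2f8 was 4.19-fold higher. Every Cirrhosis-PTH library lay below every Cirrhosis library in 15 genes and above in 2, where 11% and 11.8% of all tested genes were separated downward and upward.

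Set against Control, few of these genes were called in Cirrhosis-PTH livers, and a missing call does not show equal levels. Ccnd1, Cdk1, Cdc20 and Kif20a were higher, 4 of 44, where 6.34% of all tested genes were called higher and 2.48% lower, 8.82% in all. That share of the set, 9.09%, is near the share of all genes. None of the 44 was called lower with edgeR or with DESeq2. At an unadjusted p under 0.05, 14 were higher and 0 lower, and the share of all genes at that threshold was not counted. DESeq2 called 7 of the 44 higher after adjustment. Over all genes it called 2720 in either direction, against 1932 with edgeR. The median log2 change was 0.45, against 0.00551 over all tested genes. All Cirrhosis-PTH libraries lay above all Control libraries in 1 gene, Cdk1, where 3.07% of all tested genes were separated upward and 1.4% downward. Both PTH comparisons and the CCl4 comparison share groups of libraries, so their values below are set side by side and are not independent of each other. In bulk tissue, fewer cells in the cycle and less of a transcript per cell cannot be told apart.

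**Figure D1:**
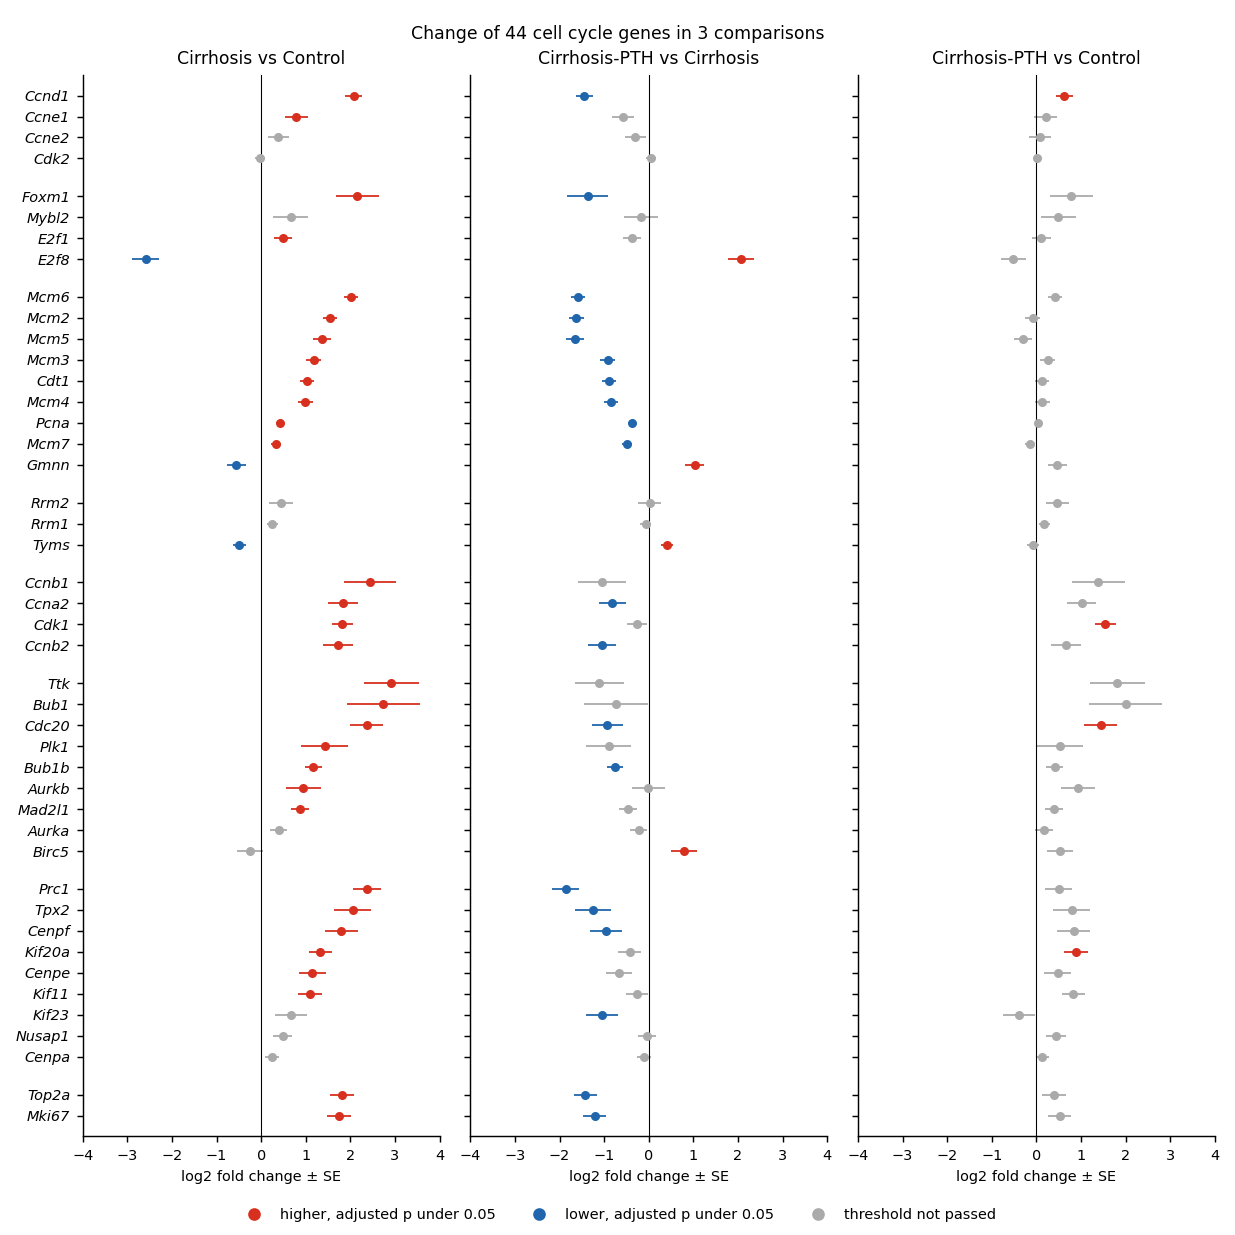
Log2 fold change ± SE of each of the 44 genes (rows, by role) in Cirrhosis against Control (left), Cirrhosis-PTH against Cirrhosis (middle) and Cirrhosis-PTH against Control (right). Red points are higher and blue points lower at an adjusted p under 0.05, and grey points did not pass. There are 31 red and 3 blue points on the left, 4 red and 20 blue in the middle, and 4 red on the right.

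Promoters are shown because they differ in the cell cycle elements they carry. They belong to the 8 genes with the smallest p in Cirrhosis against Control among those with a single RefSeq window and a match in the 120 bases before the start. Prc1, with a p in the same range, has 2 windows, and Cdt1 has matches after the start only. The sequences are from RefSeq (GRCm38.p6), and each gives the 120 bases before the annotated start, read 5′ to 3′ on the strand of the gene. Capitals mark matches on either strand to the CHR, searched as TTTGAA, to the CCAAT box, searched by the letters of its name, or to an E2F site. On the other strand these read TTCAAA for the CHR and ATTGG for the CCAAT box. The E2F site was searched in 4 spellings: the first was TTGGCGC, the second was TTCCCGC, the third was TTCGCGC and the last was TTGCCGC.
Mcm6 (chr1:128359706-128359825, minus strand): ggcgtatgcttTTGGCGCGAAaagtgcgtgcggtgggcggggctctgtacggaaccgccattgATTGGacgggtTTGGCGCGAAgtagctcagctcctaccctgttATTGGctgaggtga
Mcm2 (chr6:88898781-88898900, minus strand): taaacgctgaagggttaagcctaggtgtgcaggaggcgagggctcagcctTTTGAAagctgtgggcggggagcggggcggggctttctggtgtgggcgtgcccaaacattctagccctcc
Mcm3 (chr1:20820313-20820432, minus strand): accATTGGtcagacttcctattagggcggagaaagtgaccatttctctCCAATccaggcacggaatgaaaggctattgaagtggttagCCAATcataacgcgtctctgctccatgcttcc
Mcm5 (chr8:75109389-75109508, plus strand): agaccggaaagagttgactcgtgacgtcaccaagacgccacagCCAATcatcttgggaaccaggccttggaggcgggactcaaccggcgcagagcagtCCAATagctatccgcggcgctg
E2f8 (chr7:48881597-48881716, minus strand): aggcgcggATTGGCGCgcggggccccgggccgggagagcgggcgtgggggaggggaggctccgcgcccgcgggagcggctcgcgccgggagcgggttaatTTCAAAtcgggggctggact
Cdk1 (chr10:69352913-69353032, minus strand): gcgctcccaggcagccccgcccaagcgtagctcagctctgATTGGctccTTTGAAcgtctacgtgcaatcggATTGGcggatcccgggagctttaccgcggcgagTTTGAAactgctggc
Cdc20 (chr4:118437344-118437463, minus strand): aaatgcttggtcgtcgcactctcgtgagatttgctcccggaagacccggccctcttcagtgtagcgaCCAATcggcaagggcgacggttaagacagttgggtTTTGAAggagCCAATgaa
Top2a (chr11:99024190-99024309, minus strand): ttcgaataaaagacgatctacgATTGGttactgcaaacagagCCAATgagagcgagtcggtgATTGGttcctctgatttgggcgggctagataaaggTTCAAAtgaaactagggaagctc
Mcm6 holds 4 E2F matches as 2 overlapping pairs, with a CCAAT box after each pair. The overlapping E2F matches in Mcm6 lie on opposite strands, and in E2f8 an E2F match overlaps the letters of a CCAAT box, so these runs of capitals cover more than 1 match. Cdk1, Cdc20 and Top2a hold CCAAT boxes upstream of a CHR that starts 15, 18 and 23 bases before the annotated start. E2f8 holds a CHR that starts 20 bases before the start. In the stretch shown, Mcm2 holds a CHR alone, and Mcm3 and Mcm5 hold CCAAT boxes alone. Outside it, Mcm3 holds E2F matches after the start, and Mcm5 holds E2F matches and Mcm2 a CCAAT box further upstream. Of the stretches shown, 26 bases for Cdk1 and 9 for Cdc20 lie in annotated exons.

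Over windows from 250 bases before to 50 after the start, RefSeq entries were matched for 35 of the 44 genes. A CHR was found in 16 of the 35, or 45.7%, where 17.9% of 32851 windows of all genes held one. CCAAT boxes were in 27 of the 35, or 77.1%, against 37.4% of all windows, and E2F matches in 12, or 34.3%, against 9.57%. The kinds of match fell by role. Of the 20 mitotic genes with a window, 14 held a CHR and 3 an E2F match. Of the 10 replication genes, 1 held a CHR and 7 an E2F match. CCAAT boxes were in 17 of those 20 and in 8 of those 10. A match is a description of letters, and binding was not measured here.

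**Figure D2:**
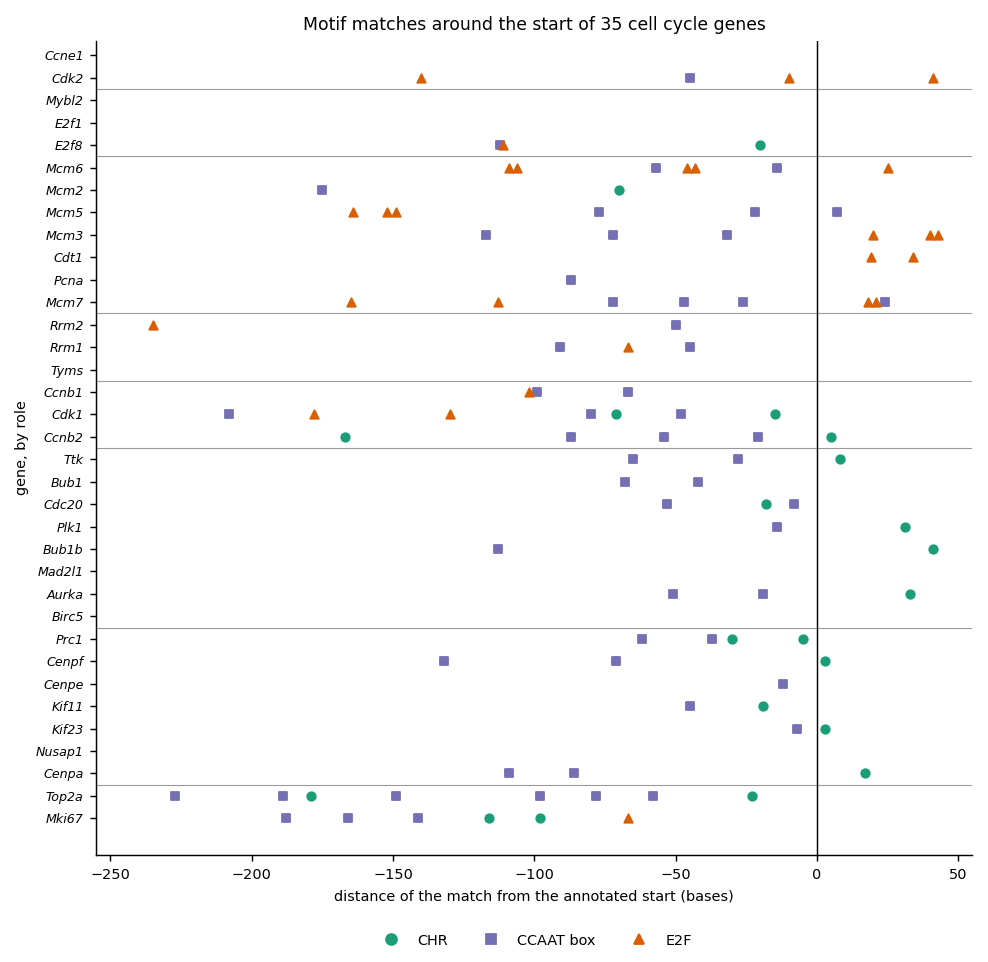
Position of each CHR, CCAAT box and E2F match (x axis, bases from the annotated start, which is the vertical line) in the windows of 35 genes, ordered by role from G1 at the top to the proliferation markers at the bottom. Green circles are CHR matches, found in 14 of the 20 mitotic genes and 1 of the 10 replication genes, and orange triangles are E2F matches, found in 3 and 7 of them.

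Among the G1 and S phase cyclins, Ccnd1 (cyclin D1, which activates Cdk4 and Cdk6; chr7:144929931-144939925) was the most abundant gene of the whole set per length. It averaged 7.92 CPM per kb of exon in Cirrhosis-PTH, 21.6 in Cirrhosis and 5.12 in Control. Its level ran from 25.1 to 48.3 CPM in Cirrhosis-PTH (median 35.5), from 68.8 to 133 CPM in Cirrhosis (median 101) and from 16.6 to 29.8 CPM in Control (median 25.0). All Cirrhosis livers lay above all livers of both other groups, and Cirrhosis-PTH and Control overlapped. The log2 change was 2.08 ± 0.19 in Cirrhosis against Control (SE, adjusted p = 7.24e-08) and -1.45 ± 0.19 in Cirrhosis-PTH against Cirrhosis (adjusted p = 7.24e-06). Cirrhosis-PTH stayed above Control by 0.63 ± 0.19 (adjusted p = 0.0448). That last call was lost without Control replicate 1, 3, 6, 7 or 8, Cirrhosis replicate 1 or 5, or Cirrhosis-PTH replicate 2, 3 or 6, with adjusted p from 0.0507 to 0.118. LTO1 overlaps Ccnd1 on the other strand.

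Ccne1 (cyclin E1, partner of Cdk2 at the start of S phase) ran from 0.514 to 1.08 CPM in Cirrhosis-PTH (median 0.828), from 1.03 to 1.51 CPM in Cirrhosis (median 1.16) and from 0.222 to 0.929 CPM in Control (median 0.754). Cirrhosis lay wholly above Control and overlapped Cirrhosis-PTH. It rose by 0.79 ± 0.26 in Cirrhosis against Control (adjusted p = 0.0143) and did not pass between Cirrhosis-PTH and Cirrhosis, at -0.58 ± 0.25 (adjusted p = 0.0771, and 0.0244 without Control replicate 8). Ccne2, the second cyclin E, changed by 0.39 ± 0.24 in Cirrhosis against Control (adjusted p = 0.19). Cdk2, their kinase, had medians of 10.0, 9.62 and 9.40 CPM in Cirrhosis-PTH, Cirrhosis and Control and a log2 change of -0.03 ± 0.11 in Cirrhosis against Control (adjusted p = 0.864). Neither passed in any comparison.

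Of the 4 transcription factors, 2 rose and 1 fell in Cirrhosis against Control. The shares are 50% and 25%, where all tested genes gave 25.5% and 25%, so the share that fell is that of all genes. E2f8 (chr7:48866429-48881596) ran from 4.32 to 15.8 CPM in Cirrhosis-PTH (median 7.58), from 1.52 to 2.59 CPM in Cirrhosis (median 2.16) and from 8.29 to 20.7 CPM in Control (median 11.7). Every Cirrhosis liver lay below every liver of the other groups, which overlapped each other. In mouse hepatocytes E2f8 is known to repress genes of cell division and to promote polyploidy. It fell in Cirrhosis against Control, at -2.59 ± 0.30 (adjusted p = 1.09e-06), and rose in Cirrhosis-PTH against Cirrhosis, at 2.07 ± 0.30 (adjusted p = 1.98e-05). Cirrhosis-PTH differed from Control by -0.52 ± 0.28, which did not pass (adjusted p = 0.288). Gm2788 overlaps E2f8 on the other strand.

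Foxm1, the forkhead factor of mitotic genes, ran from 0.298 to 1.05 CPM in Cirrhosis-PTH (median 0.345), from 1.03 to 2.34 CPM in Cirrhosis (median 1.38) and from 0 to 0.639 CPM in Control (median 0.316). Cirrhosis lay wholly above Control, and Cirrhosis-PTH replicates 3 and 6, at 1.05 and 1.02 CPM, stood beside the lowest Cirrhosis liver. Foxm1 rose by 2.16 ± 0.49 in Cirrhosis against Control (adjusted p = 0.000952) and changed by -1.37 ± 0.46 in Cirrhosis-PTH against Cirrhosis (adjusted p = 0.0228). The second call was lost without Cirrhosis replicate 3 or Cirrhosis-PTH replicate 1, 2 or 5, with adjusted p from 0.0513 to 0.0563. Tex52 and Gm44596 overlap Foxm1 on the same strand. E2f1, an activating E2F, rose by 0.49 ± 0.20 in Cirrhosis against Control (adjusted p = 0.0472). Its call was lost without Control replicate 1, 2, 3 or 6, Cirrhosis replicate 3, 4 or 6, or Cirrhosis-PTH replicate 2, 3 or 5, with adjusted p from 0.0515 to 0.115. Mybl2 (B-Myb) changed by 0.67 ± 0.39 and did not pass (adjusted p = 0.167).

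All 9 licensing and replication genes were called in Cirrhosis against Control and in Cirrhosis-PTH against Cirrhosis. Of these, 8 were higher in Cirrhosis than in Control and lower in Cirrhosis-PTH than in Cirrhosis, and Gmnn was the reverse. The Mcm proteins form the replicative helicase, which Cdt1 loads at origins and which Gmnn (geminin) blocks by binding Cdt1. Mcm6 (chr1:128331590-128359664), whose E2F matches are printed above, ran from 3.21 to 4.29 CPM in Cirrhosis-PTH (median 3.63), from 8.22 to 14.1 CPM in Cirrhosis (median 11.9) and from 1.97 to 3.66 CPM in Control (median 2.65). Every Cirrhosis liver lay above all others, with Cirrhosis replicates 2 and 3 the lowest of that group at 8.22 and 8.49 CPM. The log2 change was 2.01 ± 0.16 in Cirrhosis against Control (adjusted p = 1.68e-09) and -1.59 ± 0.15 in Cirrhosis-PTH against Cirrhosis (adjusted p = 7.14e-08), the smallest p of the set in both. Against Control, Cirrhosis-PTH stood at 0.42 ± 0.15 (adjusted p = 0.0975, and 0.0495 without Control replicate 7).

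Mcm2 ran from 1.35 to 2.38 CPM in Cirrhosis-PTH (median 1.68), from 5.09 to 6.38 CPM in Cirrhosis (median 5.39) and from 1.49 to 2.44 CPM in Control (median 1.86). Mcm5 ran from 0.818 to 1.49 CPM in Cirrhosis-PTH (median 1.07), from 3.21 to 3.81 CPM in Cirrhosis (median 3.50) and from 0.801 to 1.97 CPM in Control (median 1.37). For both, all Cirrhosis livers stood above all others. For Mcm2, Cirrhosis-PTH and Control occupied nearly the same range. For Mcm5 they overlapped, with Control replicates 2, 3 and 8, at 1.58, 1.79 and 1.97 CPM, above every Cirrhosis-PTH liver. Mcm2 changed by 1.54 ± 0.17 in Cirrhosis against Control (adjusted p = 1.48e-07) and by -1.63 ± 0.17 in Cirrhosis-PTH against Cirrhosis (adjusted p = 1.5e-07). Mcm5 changed by 1.35 ± 0.20 (adjusted p = 8.33e-06) and by -1.66 ± 0.20 (adjusted p = 1.08e-06). The other licensing genes moved by smaller steps: Mcm3 by 1.18 and -0.92, Cdt1 by 1.03 and -0.89, Mcm4 by 0.99 and -0.85, Pcna (the sliding clamp) by 0.42 and -0.38, and Mcm7 by 0.34 and -0.48. The miRNA genes Mir25 and Mir93 and the genes Ap4m1 and Cops6 overlap Mcm7.

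Gmnn ran from 2.94 to 4.12 CPM in Cirrhosis-PTH (median 3.66), from 1.06 to 2.90 CPM in Cirrhosis (median 1.56) and from 1.81 to 3.39 CPM in Control (median 2.54). Every Cirrhosis-PTH liver lay above every Cirrhosis liver, and Cirrhosis and Control overlapped. It rose in Cirrhosis-PTH against Cirrhosis by 1.03 ± 0.21 (adjusted p = 0.000551). It fell in Cirrhosis against Control, at -0.56 ± 0.21 (adjusted p = 0.0347), a call lost without Control replicate 2, 6 or 8, Cirrhosis replicate 1, 2, 4 or 5, or Cirrhosis-PTH replicate 4 (adjusted p from 0.0517 to 0.0893).

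Of the 3 enzymes of deoxynucleotide synthesis, 1 fell in Cirrhosis against Control, or 33.3%, near the 25% of all tested genes. Tyms, thymidylate synthase, ran from 2.62 to 4.20 CPM in Cirrhosis-PTH (median 3.65), from 2.17 to 3.18 CPM in Cirrhosis (median 2.71) and from 3.29 to 5.15 CPM in Control (median 3.55). All Cirrhosis livers lay below all Control livers. It fell in Cirrhosis against Control, at -0.49 ± 0.14 (adjusted p = 0.00565), and rose in Cirrhosis-PTH against Cirrhosis, at 0.41 ± 0.14 (adjusted p = 0.0216). Without Control replicates 7 and 8 together the fall was -0.34 and no longer passed (adjusted p = 0.0551). The rise was lost without Cirrhosis replicate 5 or Cirrhosis-PTH replicate 4 or 5, with adjusted p from 0.0505 to 0.0572. Rrm1, the large subunit of ribonucleotide reductase, ran from 5.60 to 7.77 CPM in Cirrhosis-PTH (median 7.12), from 5.07 to 8.40 CPM in Cirrhosis (median 7.95) and from 5.38 to 6.93 CPM in Control (median 5.96). The groups overlapped, and the change of 0.25 ± 0.12 in Cirrhosis against Control did not pass (adjusted p = 0.104, and 0.018 without Cirrhosis replicate 5). Rrm2, the small subunit, changed by 0.45 ± 0.27 (adjusted p = 0.168).

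**Figure D3:**
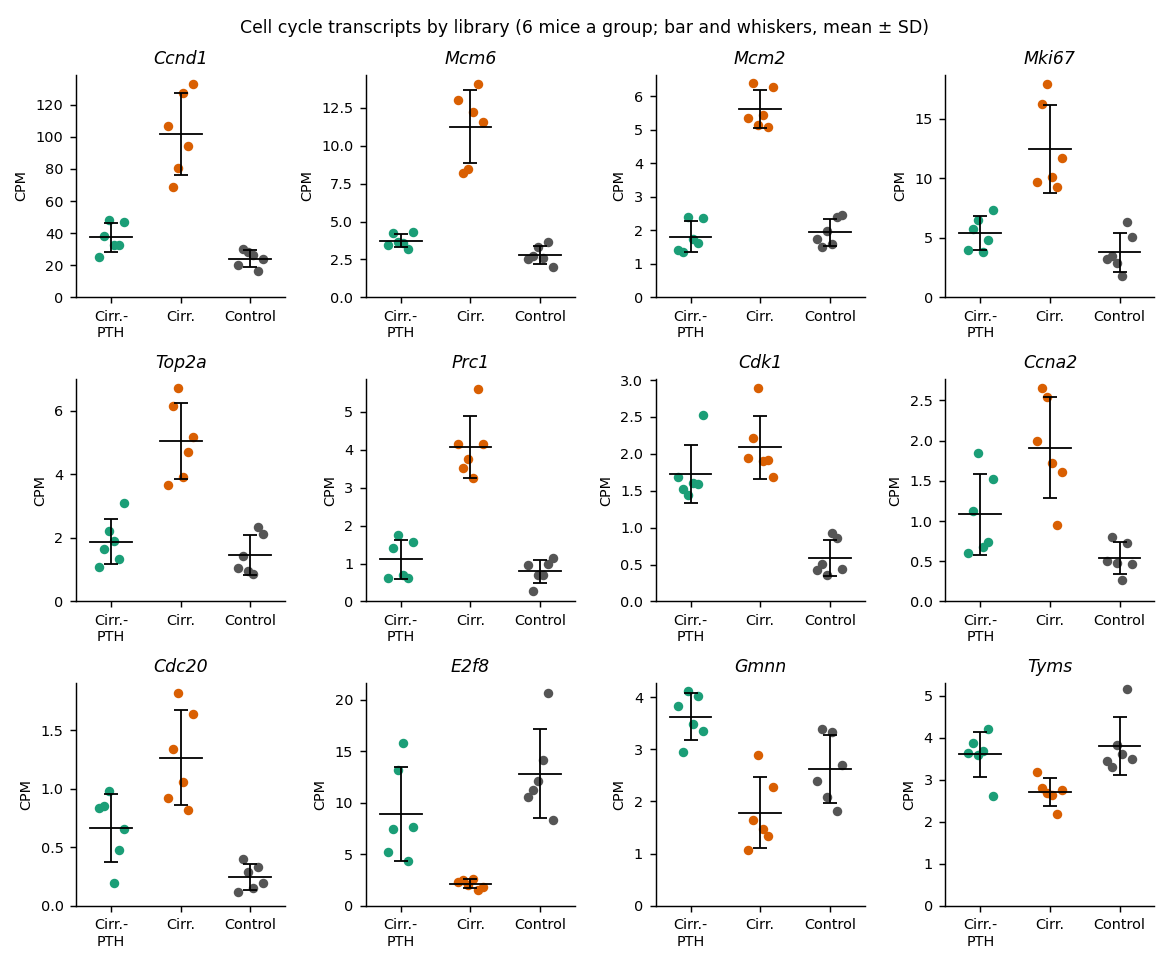
CPM (y axis, starting at 0, a scale per gene) of 12 genes in each of the 18 libraries, with Cirrhosis-PTH left, Cirrhosis in the middle and Control right. Points are livers, the bar is the mean and the whiskers ± SD (n = 6). Ccnd1, Mcm6, Mcm2, Mki67, Top2a and Prc1 show all Cirrhosis points above the rest, Cdk1 shows Cirrhosis-PTH beside Cirrhosis, and E2f8 shows Cirrhosis below the rest.

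Entry into mitosis is driven by Cdk1 with cyclins A and B, and all 4 of these genes rose in Cirrhosis against Control. Cdk1 (chr10:69335146-69352938) ran from 1.44 to 2.52 CPM in Cirrhosis-PTH (median 1.60), from 1.68 to 2.88 CPM in Cirrhosis (median 1.93) and from 0.355 to 0.933 CPM in Control (median 0.475). It was the gene whose Cirrhosis-PTH livers all stood above Control, and they overlapped Cirrhosis. The log2 change was 1.82 ± 0.24 in Cirrhosis against Control (adjusted p = 1.83e-06) and 1.55 ± 0.24 in Cirrhosis-PTH against Control (adjusted p = 0.000288). Cirrhosis-PTH against Cirrhosis gave -0.27 ± 0.22, which did not pass (adjusted p = 0.372). Leaving out any 1 library kept all of these calls.

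Ccna2 (cyclin A2) ran from 0.604 to 1.84 CPM in Cirrhosis-PTH (median 0.937), from 0.953 to 2.65 CPM in Cirrhosis (median 1.86) and from 0.264 to 0.804 CPM in Control (median 0.487). Cirrhosis lay wholly above Control, and Cirrhosis-PTH overlapped both. It rose by 1.83 ± 0.33 in Cirrhosis against Control (adjusted p = 7.41e-05) and changed by -0.81 ± 0.31 in Cirrhosis-PTH against Cirrhosis (adjusted p = 0.0411). The call against Cirrhosis was lost without Cirrhosis replicate 1, 2, 3 or 4 or Cirrhosis-PTH replicate 1, 2, 4 or 5, with adjusted p from 0.0522 to 0.0977. Against Control, Cirrhosis-PTH was at 1.02 ± 0.33 (adjusted p = 0.0532), and passed without Control replicate 2, Cirrhosis replicate 5 or Cirrhosis-PTH replicate 1, 4 or 5 (adjusted p from 0.0332 to 0.0478). Ccnb2 changed by 1.73 ± 0.33 in Cirrhosis against Control and by -1.06 ± 0.32 in Cirrhosis-PTH against Cirrhosis (adjusted p = 0.000169 and 0.0104). Ccnb1 changed by 2.44 ± 0.59 and -1.05 ± 0.54 in those comparisons (adjusted p = 0.00162 and 0.132). Exosc9 overlaps Ccna2 on the other strand.

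Of the 9 mitotic kinases and checkpoint genes, 7 rose in Cirrhosis against Control. Cdc20, which activates the anaphase-promoting complex, ran from 0.195 to 0.980 CPM in Cirrhosis-PTH (median 0.746), from 0.817 to 1.82 CPM in Cirrhosis (median 1.20) and from 0.114 to 0.402 CPM in Control (median 0.241). Cirrhosis lay wholly above Control, and Cirrhosis-PTH reached into both. Its log2 changes were 2.37 ± 0.37 in Cirrhosis against Control (adjusted p = 1.75e-05), -0.93 ± 0.34 in Cirrhosis-PTH against Cirrhosis (adjusted p = 0.035) and 1.44 ± 0.37 in Cirrhosis-PTH against Control (adjusted p = 0.017). The change against Cirrhosis did not pass without Cirrhosis replicate 2, 3 or 6 or Cirrhosis-PTH replicate 4, 5 or 6, with adjusted p from 0.0553 to 0.0851. Elovl1 overlaps Cdc20 on the other strand. Bub1b (BubR1, a checkpoint protein at kinetochores) ran from 0.836 to 1.36 CPM in Cirrhosis-PTH (median 0.918), from 1.48 to 2.06 CPM in Cirrhosis (median 1.75) and from 0.566 to 1.01 CPM in Control (median 0.753). All Cirrhosis livers stood above all others, at 1.17 ± 0.19 against Control (adjusted p = 2.64e-05), and the change in Cirrhosis-PTH against Cirrhosis was -0.76 ± 0.19 (adjusted p = 0.00235).

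Several of the other checkpoint and kinase genes had few counts. Ttk (Mps1) and Bub1, kinases that recruit checkpoint proteins, had at most 9 counts in any Control library, and changed by 2.92 ± 0.62 and 2.74 ± 0.82 in Cirrhosis against Control (adjusted p = 0.000475 and 0.00834). Plk1, the polo kinase, changed by 1.42 ± 0.52 (adjusted p = 0.0271), and the call was lost without Control replicate 2 or 6 or Cirrhosis replicate 3 (adjusted p from 0.0556 to 0.0619). Mad2l1, the checkpoint inhibitor of Cdc20, changed by 0.87 ± 0.20 (adjusted p = 0.00109). Aurkb, the kinase of the chromosomal passenger complex, changed by 0.94 ± 0.39 (adjusted p = 0.0477), a call lost when Control replicate 1, 2, 3, 6 or 8, Cirrhosis replicate 2, 3 or 5, or Cirrhosis-PTH replicate 1, 2, 3 or 5 was left out (adjusted p up to 0.12). Aurka changed by 0.40 ± 0.19 and did not pass (adjusted p = 0.0937, and 0.0494 without Cirrhosis-PTH replicate 4). Birc5 (survivin), another passenger subunit, gave -0.26 ± 0.29 in Cirrhosis against Control (adjusted p = 0.497) and 0.79 ± 0.29 in Cirrhosis-PTH against Cirrhosis (adjusted p = 0.0372). The second was lost without Cirrhosis replicate 1, 2, 4, 5 or 6 or Cirrhosis-PTH replicate 1 or 6 (adjusted p from 0.0512 to 0.0955), and the first became -0.61 (adjusted p = 0.0478) without Cirrhosis replicate 3.

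Of the 9 centromere, spindle and cytokinesis genes, 6 rose in Cirrhosis against Control and 4 fell in Cirrhosis-PTH against Cirrhosis. Prc1 (chr7:80294450-80316259) ran from 0.617 to 1.74 CPM in Cirrhosis-PTH (median 1.06), from 3.26 to 5.60 CPM in Cirrhosis (median 3.94) and from 0.283 to 1.14 CPM in Control (median 0.841). The lowest Cirrhosis liver, at 3.26 CPM, lay well above the highest of the other groups, at 1.74 CPM. It changed by 2.37 ± 0.31 in Cirrhosis against Control (adjusted p = 1.74e-06) and by -1.87 ± 0.30 in Cirrhosis-PTH against Cirrhosis (adjusted p = 3.27e-05). Rccd1 overlaps Prc1 on the other strand. Kif20a, a kinesin of the central spindle, ran from 0.625 to 1.98 CPM in Cirrhosis-PTH (median 1.24), from 1.20 to 2.89 CPM in Cirrhosis (median 1.51) and from 0.474 to 0.776 CPM in Control (median 0.707). Cirrhosis lay wholly above Control, and Cirrhosis-PTH overlapped both. It rose by 1.33 ± 0.26 in Cirrhosis against Control (adjusted p = 0.000246) and by 0.89 ± 0.26 in Cirrhosis-PTH against Control (adjusted p = 0.0374), and did not pass in Cirrhosis-PTH against Cirrhosis, at -0.43 ± 0.25 (adjusted p = 0.193). The call against Control was lost without Control replicate 1, 2, 3, 6 or 7 or Cirrhosis-PTH replicate 2, 3 or 6, with adjusted p from 0.0514 to 0.113. Cdc23 overlaps Kif20a on the other strand.

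The remaining spindle genes also varied in step size. Tpx2, which activates Aurka on spindle microtubules, changed by 2.05 ± 0.42 in Cirrhosis against Control and by -1.25 ± 0.39 in Cirrhosis-PTH against Cirrhosis (adjusted p = 0.000316 and 0.0148). Cenpf, a kinetochore protein, changed by 1.80 ± 0.37 and -0.96 ± 0.35 (adjusted p = 0.000413 and 0.0375). Its second call was lost without Cirrhosis replicate 2, 3, 5 or 6 or Cirrhosis-PTH replicate 1, 2, 4 or 5 (adjusted p from 0.0508 to 0.0858). Cenpe, the kinetochore kinesin, and Kif11, the kinesin that separates spindle poles, rose by 1.15 ± 0.30 and 1.09 ± 0.26 in Cirrhosis against Control (adjusted p = 0.00318 and 0.00144). In Cirrhosis-PTH against Cirrhosis, Cenpe gave -0.67 ± 0.29 (adjusted p = 0.0763), and passed without Cirrhosis replicate 1 or Cirrhosis-PTH replicate 2 or 3 (adjusted p from 0.0389 to 0.0462). Kif11 in Cirrhosis-PTH against Control gave 0.83 ± 0.26 (adjusted p = 0.0511). It passed without Control replicate 7, Cirrhosis replicate 2 or 5 or Cirrhosis-PTH replicate 1 (adjusted p from 0.00981 to 0.0496), at 1.07 without Control replicate 7. Kif23, another kinesin of cytokinesis, passed in Cirrhosis-PTH against Cirrhosis alone, at -1.06 ± 0.36 (adjusted p = 0.0232), and lost that call without Cirrhosis replicate 2 or Cirrhosis-PTH replicate 1 or 5 (adjusted p from 0.0549 to 0.066). In Cirrhosis against Control it stood at 0.67 ± 0.36 (adjusted p = 0.132), and at 0.99 (adjusted p = 0.0234) without Control replicate 8. Cenpa, the centromeric histone, and Nusap1, a spindle protein, did not pass in any comparison, with 0.24 ± 0.15 and 0.48 ± 0.21 in Cirrhosis against Control (adjusted p = 0.208 and 0.0656). Nusap1 passed there without Control replicate 7, with an adjusted p of 0.0369.

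Both general markers of cycling cells moved with the larger groups. Mki67, whose protein Ki-67 coats mitotic chromosomes, ran from 3.81 to 7.34 CPM in Cirrhosis-PTH (median 5.28), from 9.23 to 17.9 CPM in Cirrhosis (median 10.9) and from 1.78 to 6.28 CPM in Control (median 3.35). Top2a, the topoisomerase that untangles sister chromatids, ran from 1.09 to 3.10 CPM in Cirrhosis-PTH (median 1.78), from 3.66 to 6.72 CPM in Cirrhosis (median 4.94) and from 0.852 to 2.36 CPM in Control (median 1.26). In both genes all Cirrhosis livers lay above all others, and Cirrhosis-PTH overlapped Control. Mki67 changed by 1.74 ± 0.26 in Cirrhosis against Control (adjusted p = 1.92e-05) and by -1.22 ± 0.26 in Cirrhosis-PTH against Cirrhosis (adjusted p = 0.000832). Top2a changed by 1.81 ± 0.27 and -1.42 ± 0.27 (adjusted p = 1.16e-05 and 0.000197). Against Control, Mki67 in Cirrhosis-PTH stood at 0.52 ± 0.26 (adjusted p = 0.241), and at 0.95 (adjusted p = 0.0198) without Control replicates 7 and 8.

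The order of the group means was Cirrhosis, Cirrhosis-PTH, Control from high to low in 34 of the 44 genes, and Cirrhosis-PTH lay between the other means in 36. In 17 genes Cirrhosis was higher than Control, Cirrhosis-PTH was lower than Cirrhosis, and Cirrhosis-PTH against Control gave no call. A further 10 rose in Cirrhosis against Control and passed in neither PTH comparison. Another 8 passed in no comparison. Ccnd1 and Cdc20 passed in all comparisons, and Cdk1 and Kif20a rose in both groups given CCl4 without a call between them. E2f8, Gmnn and Tyms fell in Cirrhosis against Control and rose in Cirrhosis-PTH against Cirrhosis. A call in 1 comparison and not in another does not show that genes differ in their response, and differences between genes were not tested.

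**Figure D4:**
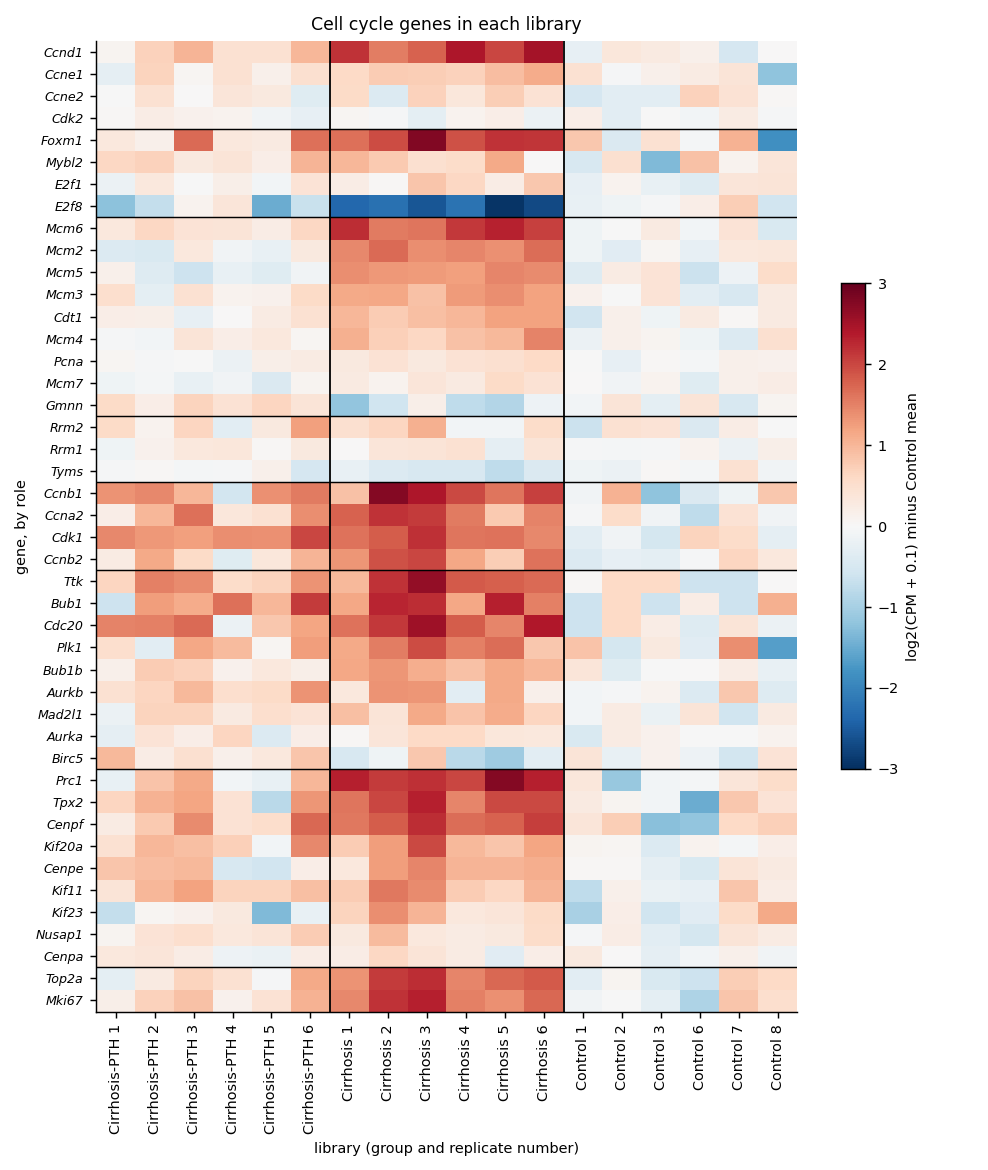
Level of each of the 44 genes (rows, by role, with lines between roles) in each library (columns, Cirrhosis-PTH left, then Cirrhosis, then Control), as log2 of CPM plus 0.1 minus the Control mean on the same scale. Red is above and blue below that mean. The helicase rows lie above that mean in all 6 Cirrhosis livers, though Mcm7 is close to it in Cirrhosis 2 (8.65 CPM, where Control averaged 8.11 CPM). The mitotic rows are reddest in Cirrhosis 2 and 3 and, within Cirrhosis-PTH, in 3 and 6.

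Livers of a group were less alike in the mitotic genes than in the replication genes. The 24 mitotic genes summed to between 24.7 and 40.7 CPM in Cirrhosis-PTH, between 45.1 and 71.0 CPM in Cirrhosis and between 17.0 and 28.5 CPM in Control. The 12 genes of replication and deoxynucleotide synthesis summed to between 47.6 and 57.0 CPM in Cirrhosis-PTH, between 70.7 and 83.6 CPM in Cirrhosis and between 43.7 and 52.2 CPM in Control. Cirrhosis replicates 3 and 2 held the highest mitotic sums of their group, 71.0 and 64.6 CPM, and its lowest replication sums, 71.3 and 70.7 CPM. Cirrhosis replicate 3 was the highest of its group in 13 of the 24 mitotic genes and replicate 2 in 8. In Cirrhosis-PTH, replicates 6 and 3 had mitotic sums of 40.7 and 37.9 CPM, against at most 34.7 CPM in the other 4.

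Markers of other cell types moved with the same groups, in the same bulk RNA. In Cirrhosis against Control, 25.5% of all tested genes were called higher and 25% lower. The 12 macrophage markers summed to between 306 and 408 CPM in Cirrhosis-PTH, between 630 and 964 CPM in Cirrhosis and between 219 and 375 CPM in Control, and 10 rose and 2 fell in Cirrhosis against Control. The 10 stellate cell and myofibroblast markers summed to between 268 and 652, between 769 and 1130, and between 188 and 318 CPM in the same order of groups, with 9 higher. The 8 cholangiocyte markers summed to between 27.3 and 84.9, between 85.8 and 205, and between 18.5 and 43.1 CPM, with 7 higher. Hepatocyte markers ran from 52200 to 58300, from 33600 to 56200 and from 52600 to 68900 CPM, with 9 of 10 lower in Cirrhosis than in Control. Cirrhosis replicates 2 and 3, with the highest mitotic sums, also had the highest macrophage sums of their group, 964 and 707 CPM. Replicate 3 also had the highest stellate and hepatocyte sums and the lowest cholangiocyte sum of Cirrhosis (1130, 56200 and 85.8 CPM), and replicate 2 lay inside the range of the group in all 3 (880, 45400 and 127 CPM). Cirrhosis-PTH replicates 3 and 6 had the highest macrophage, stellate and cholangiocyte sums of theirs. Spp1 was on both the macrophage and the cholangiocyte list, so the sums of those lists share a gene. None of these markers had a count of 0 throughout a group. The part of these cell types in the cell cycle results was not tested.

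The remaining immune and blood markers moved less uniformly. Neutrophil markers summed to between 1.27 and 7.36 CPM in Cirrhosis-PTH, between 5.52 and 140 CPM in Cirrhosis and between 0.179 and 7.34 CPM in Control, with the 140 CPM in Cirrhosis replicate 2, and 6 of 7 tested markers rose in Cirrhosis against Control. Of 10 T and NK cell markers 1 rose, with sums of 3.56 to 6.45, 4.70 to 6.73 and 2.96 to 4.56 CPM. Of 8 B and plasma cell markers 4 rose, with sums of 98.6 to 126, 102 to 199 and 109 to 155 CPM. Of 7 tested erythroid markers 2 fell, with sums of 214 to 460, 95 to 551 and 224 to 648 CPM. Of 8 endothelial markers 2 rose and 1 fell, with sums of 260 to 278, 248 to 305 and 246 to 278 CPM. The endothelial share that rose, 25%, and the erythroid share that fell, 28.6%, are near those of all tested genes, 25.5% and 25%. Their part in the cell cycle results was not tested either.

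Genes of the same processes outside the set were read from lists chosen by function, with earlier results of these data known. Their counts are therefore a description and no separate test of the set. Over all tested genes, 25.5% were called higher and 25% lower in Cirrhosis against Control. In Cirrhosis-PTH against Cirrhosis the shares were 20.1% and 18.6%, and in Cirrhosis-PTH against Control 6.34% and 2.48%. Of 48 other mitosis genes, 33 rose and 2 fell in Cirrhosis against Control, and 2 rose and 18 fell in Cirrhosis-PTH against Cirrhosis. The phosphatase Cdc25a, which activates Cdk2 and Cdk1, averaged 3.11 ± 0.76 CPM in Cirrhosis-PTH, 7.07 ± 0.71 CPM in Cirrhosis and 2.61 ± 0.48 CPM in Control (SD, n = 6 each), with log2 changes of 1.44 ± 0.17 and -1.18 ± 0.16 in those comparisons (adjusted p = 3.3e-07 and 5.79e-06). Dlgap5, a spindle protein, was higher in Cirrhosis than in Control by 3.96 ± 0.55 (adjusted p = 3.93e-06), and by 4.60 without Control replicate 8. Pttg1 (securin) and the kinetochore subunit Spc24 went the other way, at -0.83 ± 0.09 and -1.30 ± 0.24 in Cirrhosis against Control (adjusted p = 2.22e-07 and 0.00012) and 0.72 ± 0.09 and 1.39 ± 0.24 in Cirrhosis-PTH against Cirrhosis (adjusted p = 2.55e-06 and 8.29e-05). Without Cirrhosis-PTH replicate 5, 10 in place of 18 of this list fell in Cirrhosis-PTH against Cirrhosis.

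The 36 other replication genes were mixed where the helicase was uniform: 14 rose and 9 fell in Cirrhosis against Control, and 8 rose and 11 fell in Cirrhosis-PTH against Cirrhosis. Those are 38.9% and 25%, where all genes gave 25.5% and 25%, and 22.2% and 30.6%, where all genes gave 20.1% and 18.6%. The 25% and the 22.2% are near the shares of all genes. Pold1, the catalytic subunit of DNA polymerase delta, and the DNA ligase Lig1 rose by 1.08 ± 0.15 and 1.05 ± 0.17 in Cirrhosis against Control (adjusted p = 3.13e-06 and 2.82e-05). Mcm10, an initiation factor that is no part of the helicase ring, averaged 35.5 ± 3.56 CPM in Cirrhosis-PTH, 11.5 ± 3.77 CPM in Cirrhosis and 52.7 ± 7.98 CPM in Control. It changed by -2.20 ± 0.18 in Cirrhosis against Control and by 1.62 ± 0.18 in Cirrhosis-PTH against Cirrhosis (adjusted p = 1.08e-08 and 7.08e-07), opposite to Mcm2 to Mcm7. Tk1, thymidine kinase, changed by -1.48 ± 0.16 and 1.67 ± 0.16 (adjusted p = 1.65e-07 and 8.83e-08), in the direction of Tyms. Afmid overlaps Tk1 and Zswim9 overlaps Lig1, each on the other strand, so the values of Tk1 and Lig1 may include reads of those genes. Without Cirrhosis replicate 5, 5 in place of 8 of this list rose in Cirrhosis-PTH against Cirrhosis.

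Most listed inhibitors of the cycle also rose. Of 16 Cdk inhibitors and brakes, 10 rose and 2 fell in Cirrhosis against Control, 4 rose and 8 fell in Cirrhosis-PTH against Cirrhosis, and 4 rose in Cirrhosis-PTH against Control. The 25% that rose in Cirrhosis-PTH against Cirrhosis is near the 20.1% of all genes. Cdkn1a, the p21 inhibitor of cyclin and Cdk pairs, averaged 1.33 ± 0.55, 21.8 ± 4.14 and 0.690 ± 0.194 CPM in Cirrhosis-PTH, Cirrhosis and Control, with a change of -4.04 ± 0.24 in Cirrhosis-PTH against Cirrhosis (adjusted p = 8.36e-10). Btg2, an antiproliferative factor induced by p53, changed by 2.29 ± 0.19 and -1.69 ± 0.18 in Cirrhosis against Control and Cirrhosis-PTH against Cirrhosis (adjusted p = 1.01e-08 and 6.2e-07). Rbl2 (p130), the pocket protein of the DREAM complex, changed by -1.02 ± 0.10 and 0.99 ± 0.10 (adjusted p = 4.63e-08 and 1.65e-07), and the growth arrest gene Gas1 by -0.82 ± 0.20 and 1.10 ± 0.20 (adjusted p = 0.0018 and 0.000144). Without Control replicate 1 or 3, or Cirrhosis-PTH replicate 1 or 6, 2 in place of 4 of the list rose in Cirrhosis-PTH against Control.

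Of 14 other E2F and MuvB factors, 6 rose and 3 fell in Cirrhosis against Control. These are 42.9% and 21.4%, where all genes gave 25.5% and 25%. Mybl1 (A-Myb) and the activating factor E2f2 rose by 3.01 ± 0.40 and 1.40 ± 0.27 (adjusted p = 2.63e-06 and 0.000209), and the MuvB subunits Rbbp4 and Lin52 fell, at -0.59 ± 0.06 and -0.90 ± 0.13 (adjusted p = 7.79e-08 and 4.04e-06). Of 8 other G1 cyclins and kinases, 4 rose and 1 fell, or 50% and 12.5%. Myc, a driver of G1 entry, and Ccnd2 (cyclin D2) rose by 2.31 ± 0.40 and 0.81 ± 0.11 (adjusted p = 0.000125 and 3.43e-06), and Ccnh (cyclin H) was at -0.28 ± 0.10 (adjusted p = 0.0224), a call lost without Cirrhosis replicate 5 or Cirrhosis-PTH replicate 4 (adjusted p = 0.0558 and 0.058). The 14 anaphase-promoting complex genes moved little, with 2 higher and 3 lower and changes between -0.63 and 0.32. Those shares, 14.3% and 21.4%, are below the 25.5% and 25% of all genes. Cdc16 and Anapc4 rose by 0.27 ± 0.06 and 0.32 ± 0.09 (adjusted p = 0.000521 and 0.00356), and Anapc13 and Anapc11 fell, at -0.63 ± 0.11 and -0.33 ± 0.09 (adjusted p = 7.81e-05 and 0.00361).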

How the data were processed

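The deposited table holds whole-number counts per gene, 1 column per library, which the authors had not scaled, since column totals differ. The submitters' processing notes name GRCm38, the tools Trim Galore, cutadapt, HISAT2 2.2.1, Bowtie2, Bowtie 1.3.1 and StringTie 2.1.5, with no role. Annotation release and strand of counting are not given in the sources used here, so reads of overlapping genes cannot be told apart. Besides the overlaps named above, Ints8 overlaps Ccne2, Pmel overlaps Cdk2, Gm44985 overlaps Plk1 and Oip5 overlaps Nusap1, all on the other strand. Gm23451 overlaps Top2a on the same strand. For genes outside the set, not every overlap is named.

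All 18 libraries entered 1 edgeR 4.0.16 fit (R 4.3.3) of 3 groups with TMM (trimmed mean of M values) scaling and filterByExpr defaults. Two-sided p-values came from its robust quasi-likelihood F-test, with Benjamini-Hochberg adjustment over 21914 genes and a threshold of 0.05. SE is the log2 change divided by the square root of F. Every adjusted p is from this test unless DESeq2 1.42.0 is named. The procedure was tested on simulated data. For Cirrhosis-PTH against Control, it recovered 57% of simulated log2 changes of size 1 and 83% of those of size 2.

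The 44 genes, their roles and the other lists were chosen with earlier results of these data known. Values are given in full for the 2 genes of smallest p per role in Cirrhosis against Control, every gene lower there, and the 3 of smallest p in each PTH comparison. Of each other list, the 2 genes of smallest p per direction and Cdkn1a are named. Exon lengths and overlaps are from GENCODE mouse release 21 (GRCm38). Pseudogene copies of Pcna, Ccnb1, Ccnb2 and Tyms, at most 0.953 CPM in any library, may share reads with those genes. Alternatives were other scalings and filters, DESeq2, a replicate block, the 2 groups compared alone, ribosomal RNA loci removed, and libraries left out.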

Additional observations from a re-analysis of the deposited data

Results flagged for a closer look

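A liver stood apart from the other 5 of its group in 7 of 132 gene and group combinations, where chance alone flags about 1 in 20, or 6.6. In Cirrhosis replicate 3, Foxm1 was at 2.34 CPM (next highest 1.5), Kif20a at 2.89 CPM (next 1.71) and Birc5 at 2.02 CPM (next 1.02). Nusap1 was at 1.64 CPM in Cirrhosis replicate 2 (next 1.21). Cdk1 was at 2.52 CPM in Cirrhosis-PTH replicate 6 (next 1.68). In Control replicate 7, a library with few counts outside ribosomal RNA loci, Tyms was at 5.15 CPM (next 3.82) and Aurkb at 0.507 CPM from 23 counts (next 0.271). These were the highest values of their groups, and no cause was tested.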

How the results depend on the processing

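Over 27 alternatives, 132 log2 changes of single genes gave 3534 recomputed values. Of these 3366 stayed on the same side of the threshold, 113 lost the call, 55 gained it and 0 called changes turned round. In 42 of these values, over 11 log2 changes that did not pass, the sign was the opposite of the one reported. The largest of these was Kif23 in Cirrhosis-PTH against Control, at -0.39, and 0.31 with the replicate block. It was 0.21 without Control replicates 7 and 8 together. The numbers 7 and 8 occur in Control only, so the block also takes these libraries out of the comparison. The count of genes lower in Cirrhosis than in Control was 3, and 1 with a replicate block. Cirrhosis-PTH against Control gave 4 called genes, all higher, and 7 with the DESeq2 test. Over all genes, that test called 2720 in place of 1932. The cause of these differences was not tested. Leaving out 1 library at a time, the called genes ran from 30 to 35 in Cirrhosis against Control (28 to 32 higher, 2 to 4 lower). They ran from 18 to 25 in Cirrhosis-PTH against Cirrhosis (2 to 4 higher, 15 to 21 lower) and from 2 to 6 in Cirrhosis-PTH against Control, all higher, with 0 lower in each. Same-numbered libraries did not deviate together: 0 of 14 pairs had a correlation above 0.1, and no library correlated best with its own number. No pairing by number was seen in this way, though a weak shared effect could give the same result. With the replicate block, 34, 25 and 6 genes were called, against 34, 24 and 4 without it. Genes below about 1 CPM rest on few counts: Ttk and Bub1 had 0 to 9 counts per Control library, and Foxm1 had 0 counts in Control replicate 8. With a mean of at least 1 CPM required, 26 of the genes tested were called in Cirrhosis against Control, 16 in place of 33 other mitosis genes rose there, and 11 in place of 18 fell in Cirrhosis-PTH against Cirrhosis, where fewer genes are tested by construction.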

Other observations

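Ligands and receptors that act on hepatocyte growth were read from a list of 18 genes, of which 16 were tested. In Cirrhosis against Control 10 rose and 4 fell, and in Cirrhosis-PTH against Cirrhosis 3 rose and 9 fell. Those are 62.5% and 25%, where all genes gave 25.5% and 25%, and 18.8% and 56.2%, where all genes gave 20.1% and 18.6%. The 25% and the 18.8% are near the shares of all genes. Btc (betacellulin, a ligand of the EGF receptor) averaged 1.97 ± 0.30 CPM in Cirrhosis-PTH, 8.07 ± 2.71 CPM in Cirrhosis and 1.69 ± 0.37 CPM in Control (SD, n = 6 each). It changed by 2.25 ± 0.20 in Cirrhosis against Control and by -2.03 ± 0.19 in Cirrhosis-PTH against Cirrhosis (SE, adjusted p = 8.04e-09 and 6.23e-08). Hgf, hepatocyte growth factor, averaged 25.3 ± 4.33 CPM in Cirrhosis-PTH, 48.4 ± 7.80 CPM in Cirrhosis and 19.9 ± 2.08 CPM in Control, with changes of 1.28 ± 0.12 and -0.94 ± 0.11 (adjusted p = 1.06e-08 and 1.19e-06). Its receptor Met went the other way, at 94.4 ± 8.18, 67.0 ± 7.04 and 112 ± 7.72 CPM in the same order, with changes of -0.73 ± 0.08 and 0.49 ± 0.08 (adjusted p = 7.77e-08 and 2.2e-05). Igf1, the liver's circulating growth factor, averaged 502 ± 76.8 CPM in Cirrhosis-PTH, 256 ± 57.9 CPM in Cirrhosis and 478 ± 85.2 CPM in Control, with changes of -0.90 ± 0.14 and 0.97 ± 0.14 (adjusted p = 1.42e-05 and 9.29e-06).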
